A study of Mus musculus with 6 samples.

Results

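The 10 genes described here encode fibroblast growth factors (FGFs), their receptors and the Sprouty proteins that restrain their signal. They are the ligands Fgf2, Fgf7 and Fgf18, the receptors Fgfr1, Fgfr2 and Fgfr3, the receptor-like gene Fgfrl1 and the inhibitors Spry1, Spry2 and Spry4. Every probe set annotated with exactly 1 of these symbols was taken, which gave 21 of the 45101 probe sets on the array. They are 10 of the 18193 genes that the annotation names singly. The rule used gene names and no measured value, but the genes were chosen with earlier results of these data known.

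RNA of sorted bone marrow cells was hybridised to Affymetrix expression arrays. The donors were 3 mice carrying Grem1 and TdTomato alleles on a C57BL/6J background, 6 to 8 weeks of age and recorded as male, and all of them had received tamoxifen by mouth. Gremlin 1, the product of Grem1, is an extracellular inhibitor of BMPs, and TdTomato is a red fluorescent protein. Each mouse gave a Grem1+ fraction and a matched Grem1- fraction, so there were 3 arrays per group. The number in each array title was taken as the mouse. The Grem1- cells had not recombined and were gated to lack the antigens CD45, CD31 and Ter-119, which mark blood, endothelial and erythroid cells. For the Grem1+ cells the labels give the sort for Grem1 and no further gate. The study asked which genes are expressed differently by the fractions, and values are given as log2 expression, with differences as Grem1+ minus Grem1-.

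FGFs bind receptor tyrosine kinases together with heparan sulfate, and the bound receptors signal through adaptor proteins to RAS and the kinase ERK. ERK induces genes such as the Sprouty genes, whose products damp the same relay. In the growing skeleton Fgfr3 is best known as a brake on the proliferation of growth plate cartilage, while Fgfr1 and Fgfr2 act in osteoblast precursors and bone cells.

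The sort and the arrays were checked first. Grem1 stood at 3.69, 3.75 and 3.70 on the Grem1- arrays of mice 1, 2 and 3 and at 4.49, 4.14 and 8.61 on their Grem1+ arrays, a difference that did not pass the test (limma adjusted p = 0.252). Xist, a transcript of the inactive X chromosome of females, reached 11.04 and 10.60 on the arrays of mouse 3 and was at most 2.99 on the others by the same probe set, against the label for mouse 3. Without mouse 3 the Grem1 difference went from 2.04 to 0.60, and values without that mouse are given below for some genes. Of 14 chondrocyte markers 12 were higher in Grem1+ and 0 lower, and their summed level was 12.63 to 13.21 on Grem1- and 15.13 to 15.25 on Grem1+ arrays. Among 12 pan-haematopoietic markers 8 were lower and 0 higher, with summed levels of 14.69 to 14.82 and 12.08 to 13.16. Ptprc, which encodes CD45, stood between 11.78 and 12.37 on the Grem1- arrays in spite of the gate. By the same probe set it stood at 7.29, 9.61 and 10.56 in Grem1+ and was not called (limma adjusted p = 0.0648). Its other probe set averaged 8.85 in Grem1- and 3.18 in Grem1+ and was called lower (limma adjusted p = 0.0127). Pecam1, an endothelial marker, averaged 4.80 in Grem1- and 3.30 in Grem1+ and was not called (limma adjusted p = 0.0670). The difference between the 3' and 5' control probe sets of Gapdh, a measure of RNA length, averaged 2.66 ± 0.34 on Grem1- and 3.58 ± 0.51 on Grem1+ arrays (SD, n = 3). It was higher in Grem1+ within each of the 3 mice, although the groups overlapped (2.31 to 2.99 against 2.98 to 3.88). The same measure for beta-actin was lower in Grem1+, at 0.09 ± 0.11 against 0.16 ± 0.02 in Grem1- (SD, n = 3). Both marker lists and the Gapdh measure thus differed between the fractions, and their part in the differences below was not tested. In such bulk samples fewer cells of a type and less RNA per cell cannot be told apart.

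FGF receptors and Fgf2 were higher in the Grem1+ fraction. The test was limma with the mouse as a block, run on all 21572 probe sets that lay above log2 4 on at least 3 arrays, and a probe set was called at an adjusted p of at most 0.05. Of the 21 probe sets 14 passed this filter, 9 were called higher and 0 lower, and the 9 belong to Fgf2, Fgfr1, Fgfr2, Fgfr3, Fgfrl1 and Spry2. Over all tested probe sets 8.97% were called higher and 7.92% lower, 16.9% in all. Because 4 of the 14 passed only through their Grem1+ arrays, the count was repeated with no filter, where 6 of all 21 were called higher and 0 lower against 2.44% higher in the whole table. On 14 of the 21 probe sets every Grem1+ array lay above every Grem1- array, which held for 15.9% of all 45037 probe sets other than controls. The median difference was 1.96 over the 21 and 0.02 over all. With mouse 1, 2 or 3 left out, 0 probe sets of the whole table passed with the mouse block, while 6074, 5980 and 5829 had an unadjusted p under 0.05. With the block dropped as well, 8, 5 and 6 of the 14 tested were called higher, against 5.26%, 5.66% and 5.43% of all tested probe sets.

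**Figure D1:**
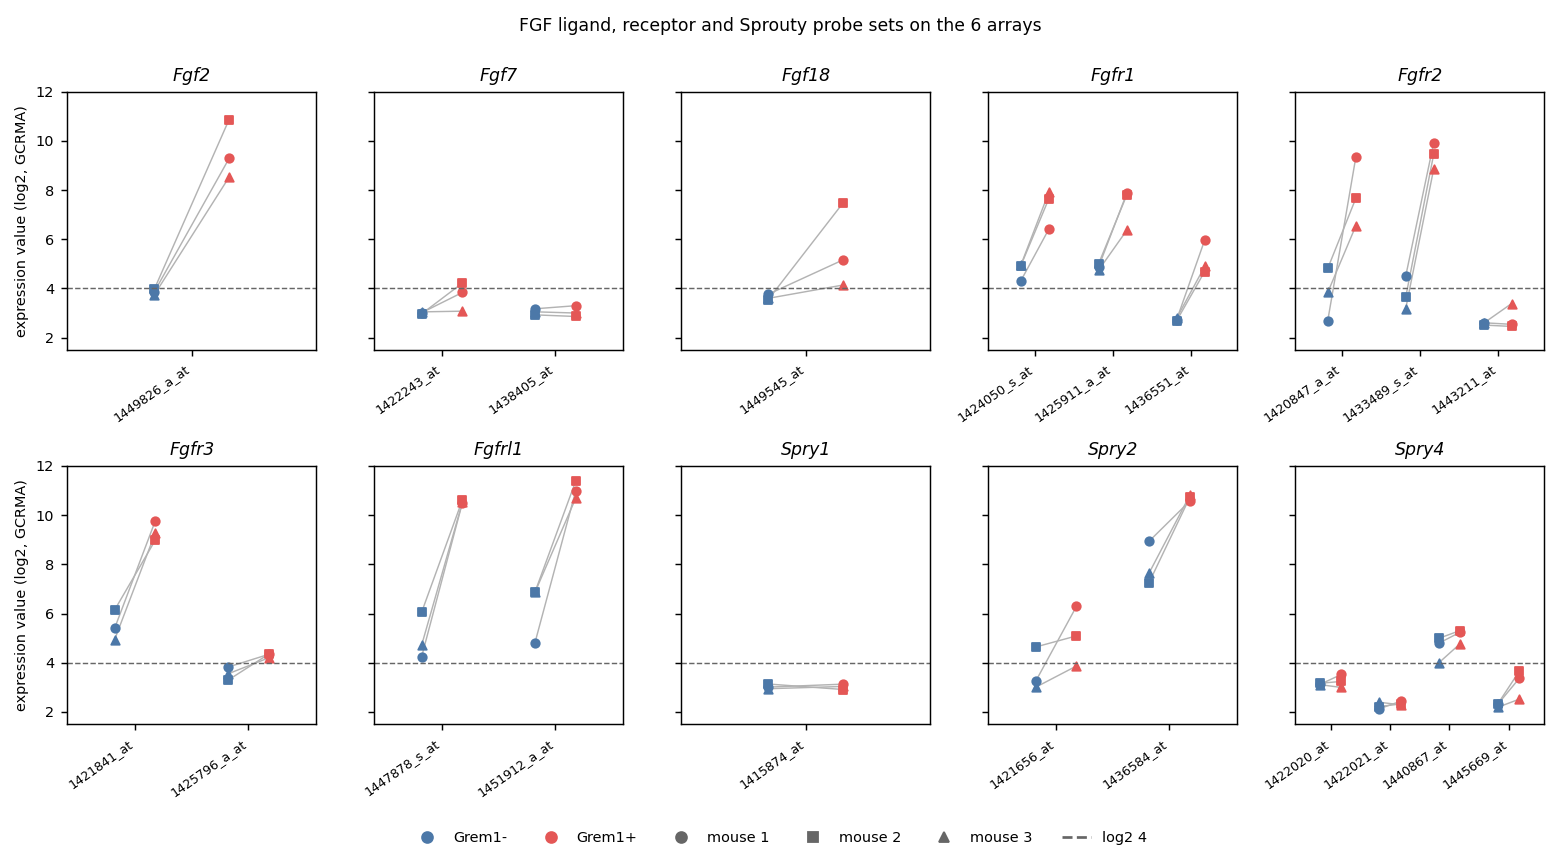
Expression value (log2, GCRMA) of each of the 21 probe sets on the 6 arrays, by gene, with Grem1- in blue, Grem1+ in red, a marker shape per mouse, grey lines joining the fractions of a mouse and a dashed line at log2 4. Fgf2, Fgfr2, Fgfr3 and Fgfrl1 each have a probe set on which the fractions lie at least 2.85 apart, while the Spry1 probe set stays between 2.91 and 3.13 on all arrays.

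Among the ligands, Fgf2 showed a wide gap between the fractions. Fgf2 encodes basic FGF, a growth factor that leaves cells without a signal peptide. Its only probe set stood at 3.86, 3.97 and 3.74 on the Grem1- arrays of mice 1, 2 and 3 and at 9.29, 10.87 and 8.52 on their Grem1+ arrays. All Grem1- values were thus dim, meaning below log2 4, and the nearest values of the groups lay 4.56 apart. The difference of 5.70 (SE 0.51, n = 3 pairs) passed the test (limma adjusted p = 0.0130). This probe set passed the filter only through its Grem1+ arrays, and with no filter it was also called (limma adjusted p = 0.0357). With dim values set to log2 4 Fgf2 was at least 47.2-fold higher in Grem1+. The difference ran from 4.79 in mouse 3 to 6.90 in mouse 2.

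Fgf2 lies on chromosome 3, where the RefSeq annotation (assembly GRCm38.p6) places the gene Nudt6 across its end and Spry1 further along. Nudt6 encodes a nudix hydrolase and is also known as an antisense partner of Fgf2. Its 2 probe sets, examined after the Fgf2 values were seen, differed by 4.28 (SE 0.74) and 5.90 (SE 0.58), and both were called higher (limma adjusted p = 0.0330 and 0.0143). On the second of them Grem1- arrays stood at 4.11, 3.13 and 3.50 and Grem1+ arrays at 8.62, 10.17 and 9.66. The first lost its call with no filter (limma adjusted p = 0.0924). Without mouse 3 the differences were 5.27 and 5.77. Whether the Fgf2 probe set also reads RNA of Nudt6 was not tested. Spata5, the coding gene between Nudt6 and Spry1, had 4 probe sets with differences of 0.18, 1.64, 0.03 and 1.54, and none of these was called. Spry1 itself was dim on every array. The annotation also has genes overlapping Fgf7 (Fam227b) and Fgfr1 (Gm31288 and Gm16159), and which strand a probe set reads is not given in the sources used here.

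Fgf18, a ligand of cartilage and bone development, was seen above log2 4 only in Grem1+ and varied between mice. Its probe set stood at 3.76, 3.55 and 3.60 in Grem1- and at 5.16, 7.48 and 4.14 in Grem1+. Every Grem1+ value lay above the Grem1- values, which the filter fixed because all Grem1- values were dim. Mouse 2 was far above mice 1 and 3. The difference of 1.96 (SE 0.75, 95% interval -0.10 to 4.02, n = 3) missed the threshold (limma adjusted p = 0.159). It was 0.97 without mouse 2 and 2.66 without mouse 3. Fgf7, known as keratinocyte growth factor, a product of stromal cells that acts on epithelium, stayed low. One of its probe sets lay between 2.96 and 3.05 in Grem1- and reached 3.84, 4.22 and 3.07 in Grem1+, and the other lay between 2.86 and 3.30 on all arrays. Neither passed the filter, so Fgf7 was measured above log2 4 on 1 array only.

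All 3 kinase receptors and Fgfrl1 had a called probe set. The stretches before the annotated starts of Fgfr2, Fgfr3 and Fgfrl1 are printed because these genes differed by the widest margins among the receptors, and that of Spry1 because it was dim throughout. They come from the RefSeq promoter table (GRCm38.p6), which held 9 windows for 8 of the 10 genes. Fgfr1 and Spry4 were not matched. Each is 250 bases long and ends at the base before the annotated start of the gene, 5′ to 3′ on the strand of the gene, at chr7:130266809-130267058 (minus strand), chr5:33721474-33721723 (plus), chr5:108693979-108694228 (plus) and chr3:37639697-37639946 (plus). Capitals mark the GC box GGGCGG, a motif bound by SP1, and the ETS core CCGGAA, read by the ETS factors that act below ERK, on either strand.
Fgfr2: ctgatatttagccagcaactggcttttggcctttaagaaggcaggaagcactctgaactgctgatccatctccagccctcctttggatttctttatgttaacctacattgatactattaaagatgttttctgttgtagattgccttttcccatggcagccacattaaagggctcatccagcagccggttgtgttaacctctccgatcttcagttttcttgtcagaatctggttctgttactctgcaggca
Fgfr3: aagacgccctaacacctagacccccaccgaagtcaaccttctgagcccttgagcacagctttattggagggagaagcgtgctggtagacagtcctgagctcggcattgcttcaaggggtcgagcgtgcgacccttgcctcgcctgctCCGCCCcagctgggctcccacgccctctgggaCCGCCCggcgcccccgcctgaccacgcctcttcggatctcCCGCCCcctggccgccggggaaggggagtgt
Fgfrl1: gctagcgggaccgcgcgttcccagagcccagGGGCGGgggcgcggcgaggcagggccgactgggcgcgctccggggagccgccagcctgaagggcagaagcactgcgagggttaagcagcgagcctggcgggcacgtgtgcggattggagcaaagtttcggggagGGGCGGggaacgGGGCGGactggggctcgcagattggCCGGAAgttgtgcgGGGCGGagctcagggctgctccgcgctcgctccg
Spry1: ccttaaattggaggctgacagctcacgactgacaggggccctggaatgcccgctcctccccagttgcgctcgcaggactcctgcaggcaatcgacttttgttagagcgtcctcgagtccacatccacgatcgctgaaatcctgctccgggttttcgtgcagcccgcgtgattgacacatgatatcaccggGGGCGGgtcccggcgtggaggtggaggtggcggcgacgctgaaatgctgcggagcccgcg

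The Fgfr2 stretch held neither motif, had 2 CpG dinucleotides and was 44.0% G or C. Fgfr3 had 3 GC boxes, 19 CpGs and 66.8% G or C, and Fgfrl1 had 4 GC boxes, 30 CpGs and 73.6%. The Spry1 stretch, with 1 GC box and 62.4% G or C, had 23 CpGs. Fgfr3 had a second window, inside the annotated gene and not shown, with 2 GC boxes, 24 CpGs and 72.8% G or C. Over 32851 promoter windows of the same length the medians were 6 CpGs and 52.4%. The GC box stood in 6 of the 9 windows of these genes and in 32.7% of all windows. The ETS core stood only in Fgfrl1 among them, against 12.0% of all windows, and it did not overlap a GC box. On either strand, the SOX core ACAAAG was found in Fgf7 and Spry2 (16.5% of all windows), and the AP-1 motif TGACTCA (4.46%) and the TATA box TATAAA (12.4%) in none of the 9. A match is a run of letters and no measured binding.

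Fgfrl1 encodes a receptor-like protein that binds FGFs and lacks the kinase domain. Its first probe set, 1447878_s_at, stood at 4.24, 6.05 and 4.71 on the Grem1- arrays of mice 1, 2 and 3 and at 10.51, 10.62 and 10.52 in Grem1+. The second, 1451912_a_at, stood at 4.81, 6.87 and 6.86 and at 11.00, 11.39 and 10.69. The Grem1+ arrays agreed closely with each other on both, and the spread lay in the Grem1- arrays. The differences were 5.55 (SE 0.44) and 4.85 (SE 0.55, n = 3 each), or 46.9-fold and 28.8-fold (limma adjusted p = 0.0120 and 0.0175). Without mouse 3 they were 5.42 and 5.36.

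Fgfr2 rose on its brightest probe set. That probe set, 1433489_s_at, stood at 4.49, 3.64 and 3.17 in Grem1- and at 9.93, 9.46 and 8.86 in Grem1+. The difference was 5.65 (SE 0.28, limma adjusted p = 0.0120), and it was 5.44, 5.82 and 5.70 in mice 1, 2 and 3. It was 5.25 with dim values set to log2 4. The probe set 1420847_a_at stood at 2.68, 4.81 and 3.84 in Grem1- and at 9.32, 7.66 and 6.54 in Grem1+. Here the groups also did not overlap, but mouse 1 differed by 6.64 and mice 2 and 3 by 2.85 and 2.71. Its difference of 4.06 (SE 0.93, 95% interval 1.52 to 6.61 before adjustment) missed the threshold (limma adjusted p = 0.0573) and passed without the replicate block (adjusted p = 0.0182). The third probe set, 1443211_at, was dim on all arrays, between 2.45 and 3.39.

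Fgfr3, the receptor of growth plate cartilage, was measured on all 6 arrays by 1421841_at. It stood at 5.40, 6.14 and 4.93 in Grem1- and at 9.78, 8.99 and 9.29 in Grem1+, with no overlap. The difference of 3.86 (SE 0.44, n = 3) is 14.5-fold (limma adjusted p = 0.0175). On the other Fgfr3 probe set, 1425796_a_at, Grem1- arrays stood at 3.82, 3.29 and 3.55 and Grem1+ arrays at 4.34, 4.35 and 4.20. These values are near the limit of log2 4, and the difference of 0.74 (SE 0.29, 95% interval -0.06 to 1.55) was not called (limma adjusted p = 0.165). This probe set passed the filter only through its Grem1+ arrays, which fixed the sign of its difference. With dim values set to log2 4 it differed by 0.30. The probe sets of Fgfr3 therefore did not share the size of their difference, and a shared direction could not be judged. With the mean of the gene's probe sets Fgfr3 differed by 2.30.

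Fgfr1 was called higher on all 3 of its probe sets. Fgfr1 is the FGF receptor found most widely in mesenchymal cells. By 1424050_s_at it stood at 4.30, 4.92 and 4.93 in Grem1- and at 6.41, 7.64 and 7.90 in Grem1+. By 1425911_a_at the values were 4.89, 5.01 and 4.75 against 7.86, 7.79 and 6.36, and by 1436551_at 2.72, 2.68 and 2.79 against 5.96, 4.69 and 4.89. No probe set had overlapping groups, although the filter fixed this for the third. The differences were 2.60 (SE 0.32), 2.46 (SE 0.40) and 2.45 (SE 0.39), and all were called (limma adjusted p = 0.0194, 0.0298 and 0.0282). The third had only dim Grem1- values and was at least 2.27-fold higher with these set to log2 4, where it lost its call (adjusted p = 0.115). With no filter the second and the third lost their calls (adjusted p = 0.0650 and 0.0603).

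**Figure D2:**
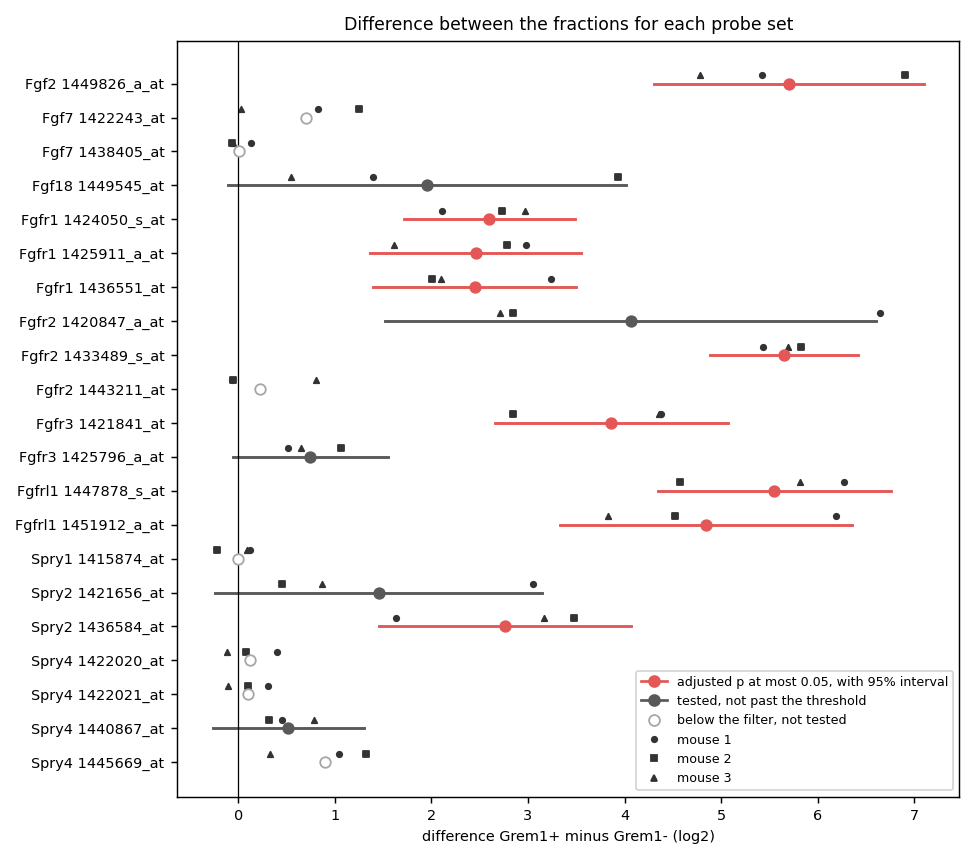
Difference Grem1+ minus Grem1- (log2) of each probe set, with the 95% interval of limma before adjustment for those tested, open circles for those below the filter, and small markers for each mouse. Called probe sets, in red, range from 2.45 for Fgfr1 to 5.70 for Fgf2.

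Of the inhibitors only Spry2 was called. Sprouty proteins are induced by receptor tyrosine kinase signals and act against RAS and ERK activation. The Spry2 probe set 1436584_at stood at 8.93, 7.25 and 7.64 in Grem1- and at 10.57, 10.72 and 10.80 in Grem1+. The groups did not overlap, the Grem1- arrays were already well above log2 4, and the difference of 2.76 (SE 0.48) is 6.77-fold (limma adjusted p = 0.0328). It lost its call with no filter (adjusted p = 0.0794). By 1421656_at the Grem1- arrays stood at 3.24, 4.64 and 3.00 and the Grem1+ arrays at 6.29, 5.09 and 3.86. These groups overlapped, and the difference of 1.46 (SE 0.62, 95% interval -0.24 to 3.15) was not called (limma adjusted p = 0.189).

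Spry1 and Spry4 were not called on any probe set. The single Spry1 probe set stood at 3.01, 3.13 and 2.94 in Grem1- and at 3.13, 2.91 and 3.03 in Grem1+, so it was dim in both fractions. For Spry4, 1440867_at stood at 4.79, 4.99 and 3.99 in Grem1- and at 5.24, 5.31 and 4.77 in Grem1+. Each mouse was higher in Grem1+, the groups overlapped, and the difference of 0.52 (SE 0.29, 95% interval -0.27 to 1.30) was not called (limma adjusted p = 0.288). The 3 other Spry4 probe sets were dim on all arrays, between 2.13 and 3.66. Whether Spry1 is expressed below the reach of its probe set was not detectable here.

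Most other tested genes of the FGF pathway were not called in either direction. Of 61 listed genes 54 had a probe set with that symbol alone and 30 passed the filter, of which 3 were called higher and 2 lower each gene by its brightest passing probe set on average. Over all 10151 genes taken this way 10.7% were called higher and 7.45% lower. The median difference was 0.19 over the 30 and 0.04 over all.

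Of 19 other ligands 3 passed the filter, and 1 was called. This was Fgf1, acidic FGF, at 3.68, 3.79 and 3.59 in Grem1- and at 6.69, 5.24 and 6.51 in Grem1+. Its difference of 2.46 (SE 0.44, limma adjusted p = 0.0353) is at least 4.43-fold with dim values set to log2 4. This probe set passed the filter only through its Grem1+ arrays, and it lost its call with no filter (limma adjusted p = 0.0804). Of the 2 passing Fgf1 probe sets 1 was called, with differences of 2.46 and 2.52. None of the 4 tested co-receptors and partners was called. Flrt1 and Flrt2, membrane proteins that bind FGF receptors, differed by 2.06 (SE 0.82, limma adjusted p = 0.167) and 1.23 (SE 1.18, adjusted p = 0.529), and by 1.07 and 0.13 without mouse 3. Fgfr4, Kl and Klb, the remaining receptor and the klotho co-receptors, did not pass the filter.

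In the relay from receptor to ERK, 11 genes were tested. Gab1, a docking protein of the receptor complex, went from 4.77 ± 0.17 to 7.72 ± 0.20 (SD, n = 3), a difference of 2.96 (SE 0.29, limma adjusted p = 0.0145), and all 3 of its passing probe sets were called, at 2.96 to 3.39. Sos2, an exchange factor that loads RAS, went from 8.05 ± 1.21 to 5.35 ± 1.39, a difference of -2.70 (SE 0.28, limma adjusted p = 0.0154). Its call rested on the pairing of arrays by the number in their titles, and without the replicate block it was lost (limma adjusted p = 0.0735).

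Among 10 other feedback inhibitors tested, Spred1 was called higher and Cbl lower. Spred1, a relative of the Sprouty proteins, went from 7.63 ± 1.22 to 10.96 ± 0.05, a difference of 3.32 (SE 0.56, limma adjusted p = 0.0314), and 4 of its 7 passing probe sets were called, within a range of 1.96 to 4.60. It lost its call with no filter (adjusted p = 0.0812). Cbl, a ubiquitin ligase that removes active receptors, went from 8.91 ± 0.50 to 6.21 ± 0.43, a difference of -2.69 (SE 0.43, limma adjusted p = 0.0293), and 1 of its 3 passing probe sets was called. It too lost its call with no filter (adjusted p = 0.0684). Dusp6, an ERK phosphatase often used as a readout of FGF signal, stood at 9.83, 10.33 and 10.24 in Grem1- and at 8.75, 9.12 and 9.87 in Grem1+. Its difference was -0.89 (SE 0.32), which was not called (limma adjusted p = 0.144). Without mouse 3 Dusp6 differed by -1.15. Dusp5, another ERK phosphatase induced by the pathway, lay the other way, at 8.37, 7.86 and 8.75 in Grem1- and at 9.76, 9.81 and 9.37 in Grem1+. Its groups did not overlap, and its difference of 1.32 (SE 0.38) was not called either (limma adjusted p = 0.0896), though it passed without the mouse block (limma adjusted p = 0.0350). Of the ETS factors, Etv5 differed by 1.89 (SE 0.51, limma adjusted p = 0.0796) and Etv4 by 0.09 (SE 0.27, limma adjusted p = 0.855).

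**Figure D3:**
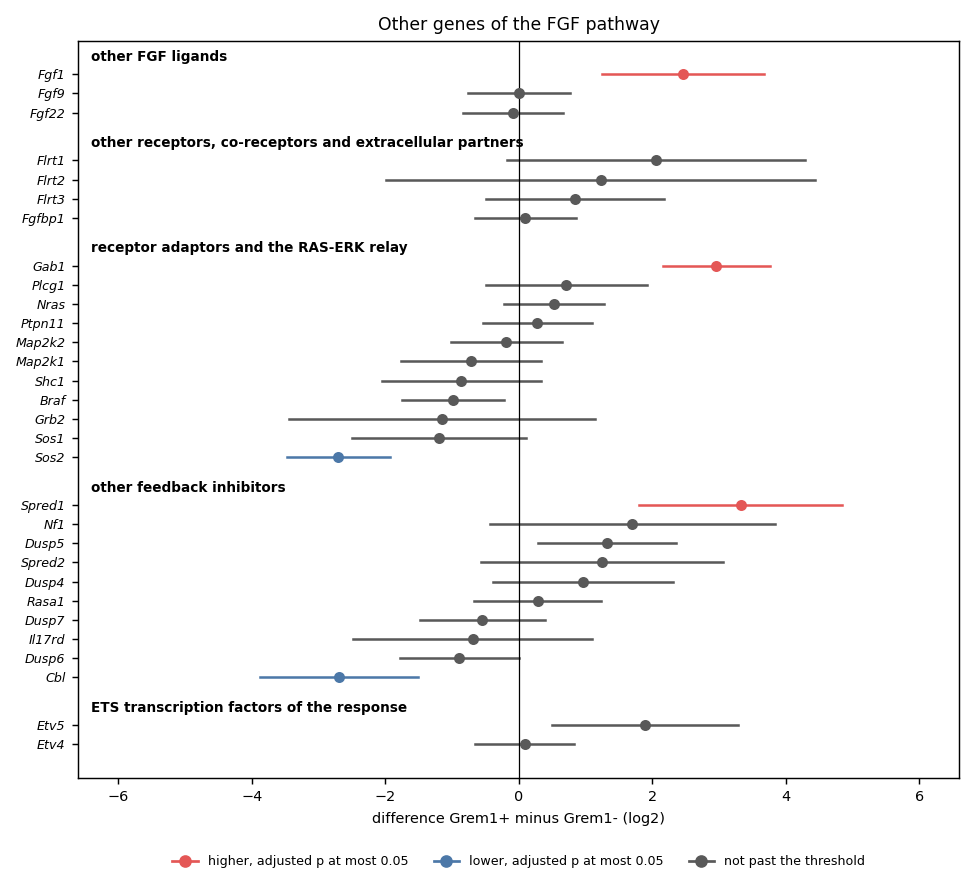
Difference Grem1+ minus Grem1- (log2) with its 95% interval before adjustment for the 30 tested genes of the FGF pathway that are not among the 10, grouped by role. Fgf1, Gab1 and Spred1 were called higher (red), Sos2 and Cbl lower (blue), and 25 were not past the threshold (grey).

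Profiles most like those of the receptors were sought among 18154 to 18155 tested probe sets of other named genes, by Euclidean distance between the 6 values after centring each probe set on its mean. Closest to Fgfr2 were Bmp2 (distance 0.56), Tead1 (0.56) and Socs2 (0.62), whose differences were 5.79, 5.51 and 5.53. Fgfr3 was nearest to Hhip (0.47), Nrp1 (0.58) and Cpq (0.60), with differences of 3.56, 3.72 and 3.55. Nearest to Fgfr1 by 1425911_a_at were Tulp3 (0.38), Aen (0.38) and Cd2ap (0.41), with differences of 2.51, 2.58 and 2.37. These are descriptions over 6 arrays that share their sort, and a like distance follows from a like difference between the fractions.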

How the data were processed

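RNA was isolated with an RNAqueous-Micro kit, amplified by the NuGEN Ovation One-Direct method and biotinylated for the arrays, per the labels' protocols. Each deposited value is the log2 expression of a probe set on an array. GCRMA is named in the submitters' processing notes, and its version is not given in the sources used here. Their range fits a log2 scale, which no label states. Scanner files were not analysed here.

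Symbols came from the platform annotation, which gave 1 symbol to 34945 probe sets, several to 932 and none to 9160, beside 64 controls. Replicates were paired by mouse, as the series design text states. Deviations of same-numbered arrays from their group means correlated at 0.0054, 0.0539 and 0.0394. Those of differently numbered arrays correlated at -0.0552 to 0.0198, a range that holds the value of 0.0054. Differences were tested with limma 3.58.1 (R 4.3.3; lmFit and eBayes, two-sided), with 2 residual and 2.18 prior degrees of freedom, with p-values adjusted (Benjamini-Hochberg) across the 21572 probe sets tested. The number of arrays limits the precision.

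The limit of log2 4 is a choice and no detection limit was measured. Marker lists covered chondrocyte, osteoblast, fibroblast, pan-haematopoietic, granulocyte, erythroid, B lineage and endothelial genes. The 10 genes, the lists and the tests were chosen with earlier results of these data known. The text names all 10 genes, and of each pathway list up to 3 called genes with the largest difference, or the 2 with the highest mean where none was called. Dusp5, Dusp6, Fgfr4, Kl, Klb, Nudt6, Spata5 and Xist were named after their values were seen.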

Additional observations from a re-analysis of the deposited data

How the results depend on the processing

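When 1 mouse was dropped and the block retained, limma called 0 probe sets in either direction, among the 21 and in the whole table, and 0 other pathway genes, while 6074, 5980 and 5829 probe sets had an unadjusted p under 0.05 without replicate 1, 2 and 3. Without the block as well, the table held 1134, 1221 and 1172 higher probe sets and 884, 939 and 993 lower ones for mouse 1, 2 and 3 dropped. Of the 14 tested among the 21, 8, 5 and 6 were higher. Of the other pathway genes 1, 3 and 2 were higher and 2, 1 and 0 lower. Without the replicate block and with all arrays, 10 of the 21 were called, the table held 2539 higher and 2337 lower probe sets, and 4 other pathway genes were higher in place of 3 and 1 lower in place of 2. With no filter on dim probe sets 1098 probe sets were higher and 802 lower, and among other pathway genes 1 was higher and 1 lower. Testing per gene by the highest mean gave 1191 higher and 864 lower genes, and averaging the probe sets of each gene 4 other pathway genes were higher and 4 lower, with Etv5 called at 2.74 (limma adjusted p = 0.0111). Other alternatives were a stricter filter at log2 6, dim values set to log2 4, median centring, and quantile and cyclic loess normalization. Further ones were eBayes with trend and robust, named probe sets only, and leaving out _s_at and _x_at probe sets. Under these, between 6 and 10 of the 21 were called higher and 0 lower, against 8.12% to 15.4% of all tested probe sets called higher. The stricter filter kept 9 of the 21 in the test, and leaving out _s_at and _x_at probe sets kept 11. Each of the 14 tested differences stayed positive under every alternative that held it. For the 4 that passed only through their Grem1+ arrays, the filter itself fixed this sign. Signal near background limits Fgf7, Fgf18, Spry1 and Spry4.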

Other observations

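Markers of the other cell types in the sort were also read. Of 7 osteoblast markers tested 4 were higher in Grem1+ and 0 lower, with summed levels of 10.55 to 10.66 in Grem1- and 12.05 to 12.38 in Grem1+, and of 10 fibroblast markers 5 were higher and 0 lower, at 10.90 to 11.74 and 13.15 to 13.72. Granulocyte markers were lower for 8 of 11, at 14.70 to 14.77 in Grem1- and 11.72 to 13.54 in Grem1+. Erythroid markers were lower for 3 of 5 tested, at 12.46 to 12.67 and 10.72 to 11.50. B lineage markers were lower for 4 of 7 tested, at 10.86 to 10.99 and 6.93 to 7.70. In each of these lists 0 were higher. On every Grem1+ array 4 erythroid and 6 B lineage genes were below log2 4, so these sums include dim values. Tfrc of the erythroid list was not called (difference -0.06). It stood at 11.42, 10.63 and 10.92 in Grem1+, close to the whole erythroid sum. Of 4 endothelial markers tested 0 were called in either direction by limma, where 7460 probe sets had an unadjusted p under 0.05, and Cdh5, Kdr, Tie1, Emcn and Robo4 were below log2 4 on every array, with summed levels of the list of 7.18 to 8.26 in Grem1- and 6.68 to 6.99 in Grem1+.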
